A study of Mus musculus with 12 samples.

Results

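Expression of 10 integrin chains of the beta1, beta3, beta5, beta7 and beta8 families was followed in mouse bone marrow-derived dendritic cells with and without Ezh2, before and after maturation with lipopolysaccharide (LPS). The members are the alpha chains Itga4, Itga5, Itga6, Itgav and Itgae and the beta chains Itgb1, Itgb3, Itgb5, Itgb7 and Itgb8. They were found as the probes whose annotated symbol is one of these 10, which gave 30 of the 45281 probes on the array, 20 designed to RefSeq mRNA records and 10 to cDNA clone records. Of the 30, 27 passed the detection filter, and all 10 genes were among the 10908 tested, each represented by its brightest detected probe. Levels are log2 normalized intensities, which compare one gene between arrays and say nothing about one gene against another.

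The 4 groups, with 3 arrays each, were Ezh2-deficient (KO) mature, wild type (WT) mature, KO immature and WT immature cells. Per the labels, marrow came from C57/B6 mice with a floxed Ezh2 gene (Ezh2f/f), with the Mx-cre transgene in addition for the deletion, so the floxed allele is also carried by the mice without the transgene. The Mx promoter answers to interferon in many cell types and is not restricted to dendritic cells, and the labels used here do not say how or when it was induced, nor the age of the mice. The culture of every group used 20 ng/ml GM-CSF plus 10 ng/ml IL-4, was changed on day 2 to 10 ng/ml GM-CSF, and ended on day 6 or 7. For the mature groups 100 ng/ml LPS was added for the last night, and an unnamed part of these cultures had no serum for 6 hours. Nothing in the labels says whether the replicates came from separate mice or cultures, so a p-value here sets a difference against the spread of these arrays alone, which may be technical.

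Integrins are receptors made of 1 alpha and 1 beta chain that bind matrix and cell surface proteins outside the cell. Most of them also bind the actin cytoskeleton inside it, through talin and kindlin on the beta tail. Itgae, the chain known as CD103, pairs only with Itgb7. That receptor binds E-cadherin on epithelium, and CD103 marks subsets of dendritic cells and mucosal T cells. Itga4 pairs with Itgb1 or Itgb7 to bind VCAM-1, fibronectin and MAdCAM-1, Itga5 pairs with Itgb1 to bind fibronectin, and Itga6 with Itgb1 binds laminin. Among the members, Itgav pairs with Itgb1, Itgb3, Itgb5 or Itgb8, and with Itgb8 it releases active TGF-beta from its latent complex on dendritic cells. A bulk array reads RNA and not surface receptor, and in a bulk sample fewer cells of a type and less RNA per cell cannot be told apart.

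Between 17892 and 19611 probes were detected per array, with median intensities of 108 to 119. Arrays that share a replicate number are called a set here. In set 3 the labels went against expression. Il6, a cytokine made on LPS stimulation, stood at 12.55 and 12.58 on the KO mature arrays and at 11.82 and 12.32 on the WT mature arrays of sets 1 and 2, against 5.17 and 5.52 on the KO immature and 6.45 and 6.02 on the WT immature arrays. The set 3 array labelled WT mature stood at 4.93 and the one labelled WT immature at 11.99. Cdkn2a, a known Polycomb target, was detected on the 4 KO arrays of sets 1 and 2 and on none of their 4 WT arrays, and on 0 of the 2 arrays labelled KO and 2 of the 2 labelled WT in set 3. Sets 1 and 2, with 2 arrays a group, therefore carry the tests, and set 3 is given apart by its labels. The brightest Ezh2 probe did not separate the genotypes, with 10.02 and 11.18 on KO mature arrays against 10.26 and 10.97 on WT mature arrays, and 9.62 and 9.39 on KO immature arrays against 9.78 and 9.57 on WT immature arrays. A dimmer Ezh2 probe was lower in KO cells of both stages, at 6.10 and 6.61 against 6.90 and 7.03 in WT for mature cells, and at 4.96 and 5.06, both not detected, against 6.58 and 6.03 in WT for immature cells. Whether either probe lies in the deleted exons is not given in the sources used here, so neither checks the labels. Of the 9 dendritic cell markers, 8 were tested and 7 were detected on all 8 arrays of sets 1 and 2, with Cd209a on 3 and Flt3 below the filter.

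Maturation with LPS changed 7 of the 10 chains in KO cells and the same number in WT cells, 4 upward and 3 downward in each, at an adjusted p under 0.05 (limma, Benjamini-Hochberg over the 10908 genes). Itga4, Itga5, Itgav and Itgb8 rose, Itgae, Itgb7 and Itgb5 fell, and Itga6, Itgb1 and Itgb3 were not called. The background was high: 36% of all genes were called in KO cells, 15.2% upward and 20.8% downward, and 30.3% in WT cells, 12.6% upward and 17.7% downward. Averaged over the genotypes the members were again 4 up, 3 down and 3 not called, beside 49.1% of all genes called, 21.4% upward and 27.7% downward. The median change of the 10 members was 0.07 on the log2 scale, beside -0.03 over all genes.

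**Figure D1:**
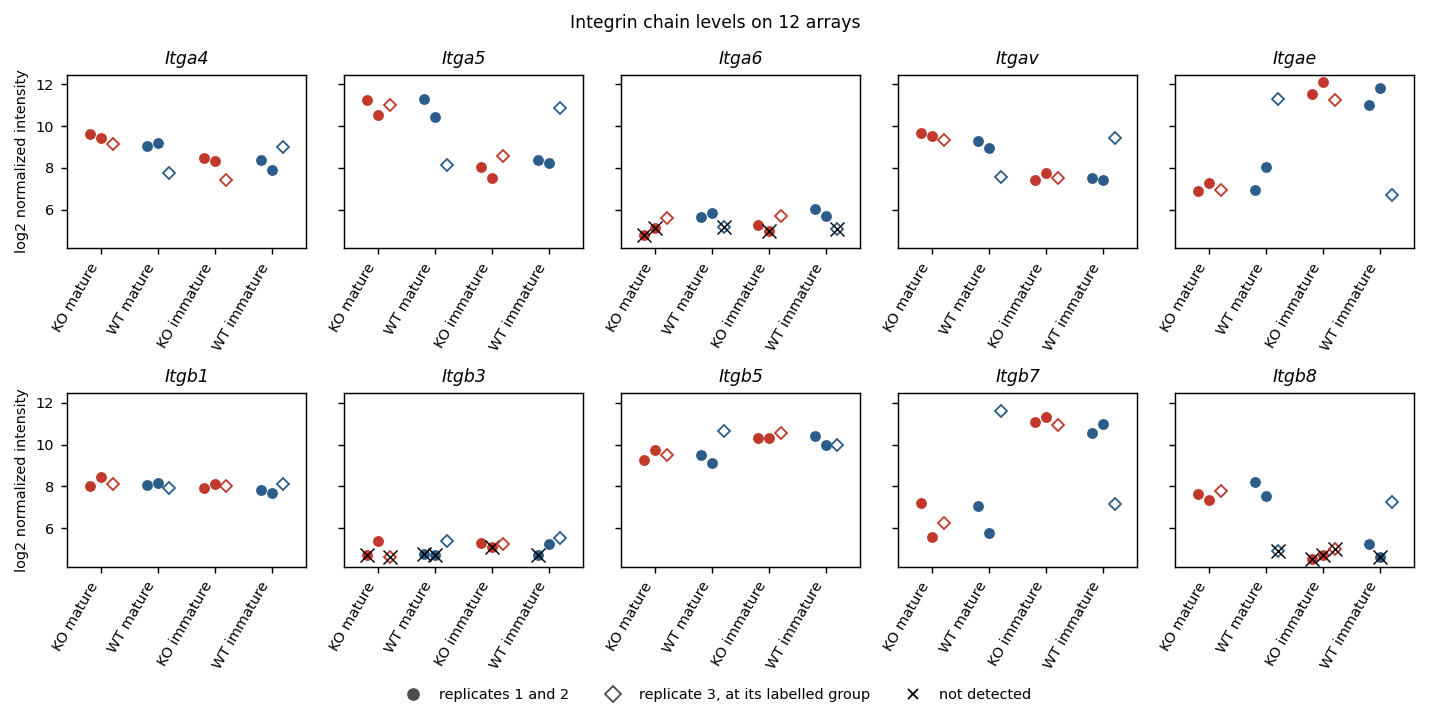
Levels of the 10 integrin chains on the 12 arrays, as log2 normalized intensity of each gene's brightest detected probe, in the labelled groups KO mature, WT mature, KO immature and WT immature from left to right. Filled circles are sets 1 and 2, open diamonds are set 3 at its labelled group, and a cross marks an array on which the probe was not detected. Itgae and Itgb7 lie between 5.57 and 8.02 on the mature arrays of sets 1 and 2 and between 10.57 and 12.09 on the immature ones, and the open WT diamonds lie with the other stage.

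RNA of both chains of the E-cadherin receptor fell on maturation. Itgae was at 6.89 and 7.26 on the KO mature arrays against 11.55 and 12.09 on the KO immature arrays, and at 6.92 and 8.02 on the WT mature against 11.02 and 11.85 on the WT immature arrays. All 4 mature arrays lay below all 4 immature ones. Itgae fell by 4.75 on the log2 scale in KO cells (26.8-fold, SE 0.41, adjusted p = 0.00021) and fell by 3.97 in WT cells (15.6-fold, SE 0.41, adjusted p = 0.00056). Itgb7, the only partner of Itgae, was at 7.22 and 5.57 on the KO mature arrays against 11.10 and 11.33 on the KO immature arrays, and at 7.04 and 5.75 on the WT mature against 10.57 and 11.01 on the WT immature arrays. The stages again did not overlap, and the mature arrays of set 2 lay more than 1 log2 unit below those of set 1 in both genotypes. Itgb7 fell by 4.82 in KO cells (28.3-fold, SE 0.56, adjusted p = 0.00064) and fell by 4.39 in WT cells (21.0-fold, SE 0.56, adjusted p = 0.0012).

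Averaged over genotypes, Itgb7 fell by 4.61 (SE 0.40, adjusted p = 7.0e-05) and Itgae fell by 4.36 (SE 0.29, adjusted p = 2.6e-05), and 12 and 17 of the 10908 genes had larger fitted falls than Itgb7 and Itgae. With the authors' deposited log2 values, which appear to have no background correction, the changes were -3.58 for Itgb7 and -3.73 for Itgae, still called. Cdh1, the E-cadherin that this receptor binds and that dendritic cells make themselves, fell in the same direction: it was at 7.22 and 7.58 on KO mature arrays against 10.49 and 11.46 on KO immature arrays, and at 7.52 and 8.34 on WT mature against 10.29 and 11.43 on WT immature arrays. Its average change was -3.26 (SE 0.33, adjusted p = 0.00014).

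Markers of other cells that may carry these chains were followed beside the falls, with 27.7% of all genes called lower. Of the T or NK cell list, 5 of 8 genes were tested and 2 fell with LPS. Cd3g averaged 4.81 on mature and 9.73 on immature arrays and was detected on 4 of the 8 (adjusted p = 3.4e-06), and Cd3d averaged 5.15 and 7.51 and was detected on 5 (adjusted p = 0.00033). Trac, Ncr1 and Lck did not pass the detection filter, Cd3e was detected on 3 of the 8 arrays and Cd2 and Klrb1c on 1 each. The summed linear level of the list was 147 to 170 on KO mature and 146 to 158 on WT mature arrays, against 2248 to 3265 on KO immature and 489 to 653 on WT immature arrays. Both the stages and the immature genotypes were apart in this sum, which follows mainly Cd3g. On immature arrays Cd3e, Cd2 and Klrb1c averaged only 5.12, 5.15 and 4.78. Of the 5 tested genes, 1 was called for KO minus WT averaged over the stages. Of the mast cell, basophil and eosinophil list, 2 of 8 tested genes fell, Cpa3 and Kit, and 6 were not called. Its sum overlapped between stages in both genotypes, with 1807 to 2665 on KO mature and 1640 to 3416 on WT mature arrays, against 2338 to 4191 on KO immature and 2610 to 4971 on WT immature arrays. Of the neutrophil list, 4 of 8 tested genes fell and 4 were not called. Its sum overlapped between stages in KO cells and not in WT cells, with 2128 to 5175 on KO mature and 4229 to 9451 on WT mature, against 4202 to 19778 on KO immature and 10216 to 25990 on WT immature arrays. The part of these cells in the falls was not tested.

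RNA of both chains of the TGF-beta activating receptor rose. Itgb8 was at 7.61 and 7.36 on the KO mature arrays against 4.52 and 4.73 on the KO immature arrays, neither of which detected it, and at 8.22 and 7.53 on the WT mature against 5.26 and 4.60 on the WT immature arrays, of which the first detected it. Every mature array detected Itgb8 and lay above every immature one. In KO cells it was at least 5.13-fold higher after LPS, a bound set against the lowest normalized value among detected probes, with an adjusted p of 0.00050 in the fit. In WT cells it rose by 2.95 (SE 0.32, adjusted p = 0.00063). The fitted average over genotypes, which uses the arrays that did not detect the probe, was 2.91 (SE 0.22, adjusted p = 4.4e-05). It was 1.44 with the authors' deposited log2 values, which appear to have no background correction, and was called in both.

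Itgav, its alpha chain, was at 9.67 and 9.54 on the KO mature arrays against 7.43 and 7.73 on the KO immature arrays, and at 9.28 and 8.96 on the WT mature against 7.49 and 7.43 on the WT immature arrays. The stages were apart by more than 1 log2 unit in both genotypes. Itgav rose by 2.02 in KO cells (SE 0.20, adjusted p = 0.00033) and by 1.66 in WT cells (SE 0.20, adjusted p = 0.00096), 3.58-fold on average (1.84, SE 0.14, adjusted p = 4.3e-05).

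Sums of some marker lists of other cells also stood higher beside these rises, with 21.4% of all genes called higher. Of the plasmacytoid dendritic cell list, 4 of 5 genes were tested and 3 rose, Bst2, Tcf4 and Il3ra, while Siglech was not called (-0.10). Its summed linear level was 5822 to 6217 on KO mature and 5054 to 5947 on WT mature arrays, against 2242 to 2265 on KO immature and 2506 to 2769 on WT immature arrays. Of the macrophage or monocyte list, 5 of 8 were tested, 1 rose (Cd14) and 1 fell (Csf1r, -1.79). Adgre1, Mertk and Fcgr1 were not called (0.05, 0.11 and 0.16). The sums were 22239 to 30619 on KO mature and 25782 to 30636 on WT mature arrays. On immature arrays they were 17982 to 18373 in KO and 17227 to 20912 in WT cells. These higher sums go with Cd14, which averaged 14.08 on mature and 11.87 on immature arrays, and not with the list as a whole. Of the stromal, fibroblast or endothelial list, 5 of 9 genes were tested and 1 rose, Pecam1 (0.95). Col1a1, Cxcl12, Pdgfra and Col1a2 were not called. The sum was 379 to 573 on KO mature against 293 to 301 on KO immature arrays. On WT arrays it was 330 to 523 in mature and 275 to 315 in immature cells. Of the B cell list, 2 of 6 were tested and Cd79b rose. That sum was 140 to 203 in KO mature against 79 to 95 in KO immature cells and overlapped in WT cells. The part of these cells in the rises was not tested.

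Itgb5 and Itgb3, other beta partners of Itgav, were not called higher. Itgb5, which with Itgav binds vitronectin and takes part in the uptake of dying cells, was at 9.28 and 9.75 on the KO mature arrays against 10.32 and 10.32 on the KO immature arrays, and at 9.51 and 9.12 on the WT mature against 10.41 and 9.97 on the WT immature arrays. The mature arrays all lay below the immature ones, by 1.79-fold on average (-0.84, SE 0.17, adjusted p = 0.0039). Within one genotype this call was fragile: the change of -0.80 in KO cells (adjusted p = 0.031) was not called without KO mature array 1 (-0.57, adjusted p = 0.14), KO immature array 1 (-0.81, adjusted p = 0.12) or KO immature array 2 (-0.80, adjusted p = 0.12). The change of -0.88 in WT cells (adjusted p = 0.026) was not called without WT immature array 1 (-0.65, adjusted p = 0.15) or WT mature array 2 (-0.68, adjusted p = 0.12). Itgb3, which with Itgav forms the vitronectin receptor and with Itga2b the platelet fibrinogen receptor, stayed near background, at 4.73 and 5.39 on KO mature, 4.77 and 4.73 on WT mature, 5.27 and 5.08 on KO immature and 4.71 and 5.23 on WT immature arrays. Only 3 of these 8 arrays detected it, and no order of the groups could be read (-0.17 on average, 95% interval -0.63 to 0.29).

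Among the fibronectin, VCAM-1 and laminin receptors, the alpha chains Itga5 and Itga4 rose. Itga5 was at 11.25 and 10.53 on the KO mature arrays against 8.05 and 7.50 on the KO immature arrays, and at 11.32 and 10.43 on the WT mature against 8.39 and 8.21 on the WT immature arrays. Every mature array was at least 2 log2 units above every immature one. Itga5 rose by 3.12 in KO cells (SE 0.35, adjusted p = 0.00056) and by 2.57 in WT cells (SE 0.35, adjusted p = 0.0016), 7.18-fold on average, and 109 genes rose more.

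Itga4 was at 9.61 and 9.42 on the KO mature arrays against 8.48 and 8.32 on the KO immature arrays, and at 9.02 and 9.18 on the WT mature against 8.38 and 7.89 on the WT immature arrays. The stages did not overlap within either genotype. The rise was 1.12 in KO cells (SE 0.21, adjusted p = 0.0051) and 0.97 in WT cells (SE 0.21, adjusted p = 0.011), where it was not called without WT immature array 2 (0.72, adjusted p = 0.078) or WT mature array 2 (0.89, adjusted p = 0.055).

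Itgb1, the shared beta chain of these receptors, had the smallest average change of the 7 members detected on all 8 arrays. It was at 8.04 and 8.45 on KO mature, 8.05 and 8.15 on WT mature, 7.91 and 8.11 on KO immature and 7.82 and 7.66 on WT immature arrays. The KO stages overlapped and the average change of 0.30 was not called (SE 0.15, adjusted p = 0.14). Itga6 lay near background, at 4.76 and 5.11 on KO mature, 5.62 and 5.83 on WT mature, 5.27 and 4.97 on KO immature and 6.03 and 5.70 on WT immature arrays, and its LPS change of -0.16 was not called (95% interval -0.55 to 0.23).

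**Figure D2:**
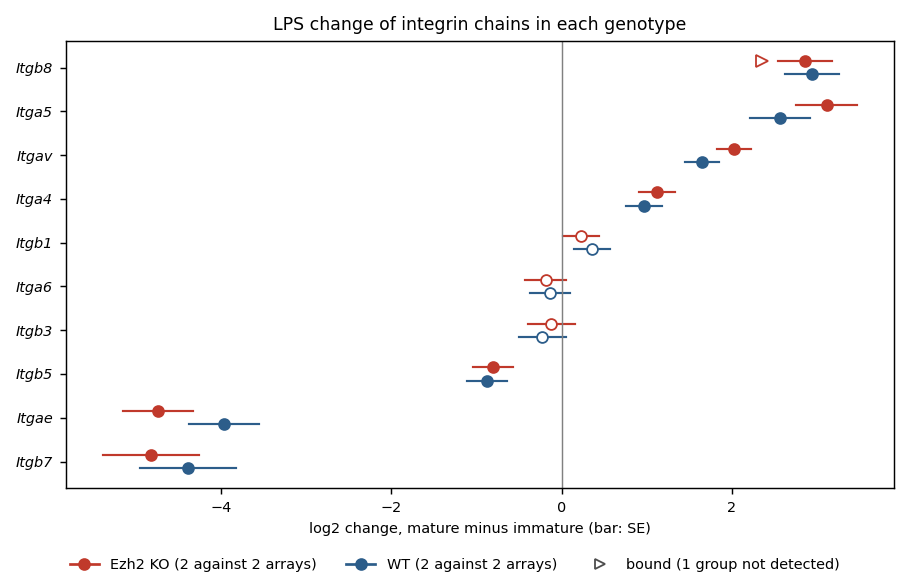
Change of each integrin chain with LPS, as the log2 difference of mature minus immature arrays, in KO (red) and WT (blue) cells of sets 1 and 2, with 2 arrays against 2 and bars of 1 SE. Filled points were called at an adjusted p under 0.05, and the members run from Itgb8 at a fitted 2.87 in KO, with its bound of 2.36 as a triangle, and 2.95 in WT down to Itgb7 at -4.82 in KO and -4.39 in WT.

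In set 3, which is not among the 8 arrays of the tests given so far, the pair labelled KO showed the same directions for the 7 called chains. Its mature minus immature differences were -4.33 for Itgae, -4.71 for Itgb7, -1.06 for Itgb5, 2.44 for Itga5, 1.82 for Itgav, 2.79 for Itgb8 and 1.70 for Itga4. The pair labelled WT gave the opposite sign for each of the 7, for example 4.61 for Itgae, 4.49 for Itgb7, -2.75 for Itga5 and -2.35 for Itgb8. With all 12 arrays taken as labelled, 0 of the 10 members and 0 of the 10908 genes were called by limma in KO cells, in WT cells or on average, while 7, 0 and 7 members and 4596, 90 and 3726 genes had an unadjusted p under 0.05.

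Promoters of 7 of the 10 members were matched in the RefSeq promoter table (GRCm38.p6), each covering 250 bases before and 50 after the gene's start, and those of Itga6, Itgae and Itgb3 were not matched. The promoters of the 3 chains with the largest rises and of the matched chain with the largest fall are shown so that the promoters of chains that moved apart can be read side by side. They are printed 5′ to 3′ on the gene's own strand, Itgb8 at chr12:119238227-119238526 (minus strand), Itga5 at chr15:103366742-103367041 (minus strand), Itgav at chr2:83724147-83724446 (plus strand) and Itgb7 at chr15:102231886-102232185 (minus strand). Capitals mark matches on either strand to the kappaB-type motif GGGNNNNNCC, a loose form of the sites bound by NF-kappaB, the factor that LPS signalling activates.
Itgb8 promoter: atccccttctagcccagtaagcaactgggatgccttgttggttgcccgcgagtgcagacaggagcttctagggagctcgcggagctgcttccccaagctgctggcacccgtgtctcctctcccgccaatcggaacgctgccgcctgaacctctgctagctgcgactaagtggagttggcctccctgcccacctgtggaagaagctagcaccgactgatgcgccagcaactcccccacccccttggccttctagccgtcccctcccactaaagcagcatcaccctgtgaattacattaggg
Itga5 promoter: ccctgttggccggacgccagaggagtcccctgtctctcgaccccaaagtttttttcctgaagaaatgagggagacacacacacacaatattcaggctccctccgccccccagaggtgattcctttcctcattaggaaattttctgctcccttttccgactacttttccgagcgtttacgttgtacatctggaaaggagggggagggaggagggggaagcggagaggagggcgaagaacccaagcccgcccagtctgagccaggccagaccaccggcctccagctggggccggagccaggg
Itgav promoter: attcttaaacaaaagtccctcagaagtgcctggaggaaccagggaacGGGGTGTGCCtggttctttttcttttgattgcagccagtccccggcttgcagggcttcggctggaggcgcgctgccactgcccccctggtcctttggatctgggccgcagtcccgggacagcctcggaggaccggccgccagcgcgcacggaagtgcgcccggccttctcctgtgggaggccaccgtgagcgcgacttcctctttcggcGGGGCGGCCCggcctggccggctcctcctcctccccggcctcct
Itgb7 promoter: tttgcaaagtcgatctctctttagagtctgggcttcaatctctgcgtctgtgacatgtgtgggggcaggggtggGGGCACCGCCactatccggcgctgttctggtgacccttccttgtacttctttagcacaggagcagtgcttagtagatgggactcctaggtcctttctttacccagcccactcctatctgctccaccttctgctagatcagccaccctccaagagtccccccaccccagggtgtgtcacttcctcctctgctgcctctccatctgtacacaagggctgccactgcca
Itgav held 3 matches, of which 2 are the same letters read on both strands and overlap a GC box (GGGCGG), Itgb7 held 1, and Itga5 and Itgb8 held none. Among the promoters not printed, Itgb5 held 2 and Itga4 and Itgb1 held none. The motif was thus in 3 of 7 members, 1 that rose and 2 that fell, beside 50.8% of the 32851 promoters in the table. The PU.1 core GAGGAA, named for a factor of the myeloid lineage, lay in Itga5, Itgav, Itgb1 and Itgb7 and in 28.3% of all promoters, and the AP-1 motif TGANTCA in 0 of the 7 and 7.81% of all. By composition, Itgb7 with 56.3% G and C and 5 CpG dinucleotides stood lowest of the 7, and Itgb1 and Itgav were highest, both with 67.3% and with 27 and 24 CpG. The medians over all promoters were 52.7% and 7 CpG. A match of letters is a description and shows no binding.

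Single probes gave the same picture for most members, with exceptions in Itga4, Itgav and Itgb1. Of the 27 probes that passed the filter, 12 were called higher after LPS, 8 lower and 7 neither (average of both genotypes, adjusted over 17632 probes), beside 22% of all such probes called higher and 24.9% called lower. All 6 Itgae probes fell, with changes of -4.40 to -0.95, and 4 of them failed detection on both KO mature arrays, so that their folds there are bounds, for example at least 10.8-fold lower in KO mature than in KO immature cells for the brightest of the 4. Both Itga5 probes rose, by 2.84 and 2.51. For Itgav 4 of 5 probes rose, and the fifth changed by 0.41 (adjusted p = 0.20).

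Itgb1 depends on the probe. Its brightest probe changed by 0.30 and was not called, while its second probe, also to a RefSeq mRNA and detected on all 12 arrays, rose by 0.85 (SE 0.17, adjusted p = 0.0042). That second probe read 8.39 and 8.51 on KO mature, 8.48 and 8.40 on WT mature, 7.40 and 8.03 on KO immature and 7.63 and 7.32 on WT immature arrays, with no overlap between stages. With the mean of both probes Itgb1 was called on average (0.57, adjusted p = 0.012). The rise of Itga4 rests on 3 probes to cDNA clone records. Of its 3 RefSeq mRNA probes, 2 were detected on no array and the third, detected on 1 of the 8, changed by -0.10. Which transcript or strand the clone probes read is not given in the sources used here. Both detected Itgb8 probes rose, by 2.91 and 0.82, the third was detected nowhere, and the 3 Itga6 probes were all not called.

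**Figure D3:**
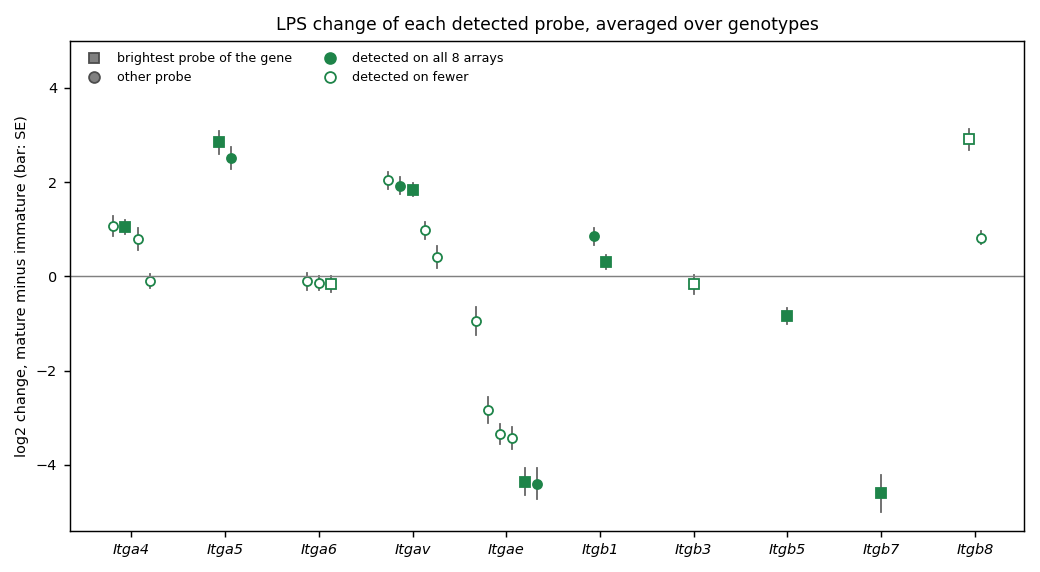
LPS change of the 27 detected probes of the 10 integrin chains, as the log2 difference of mature minus immature arrays averaged over KO and WT cells of sets 1 and 2, with bars of 1 SE. Squares are the brightest probe of each gene, and filled symbols were detected on all 8 arrays; the 6 Itgae probes run from -4.40 to -0.95 and the 2 Itgb1 probes stand at 0.30 and 0.85.

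None of the 10 chains differed between KO and WT cells at the threshold. With limma, 0 members passed the threshold in immature cells, in mature cells or on the average of both stages, beside 0.0275%, 0.0183% and 0.055% of all genes (3, 2 and 6 of 10908). At an unadjusted p under 0.05 there were 1, 2 and 1 members, beside 333, 522 and 665 of all genes. The 95% intervals of the members reached from -1.35 to 1.74 in immature cells and from -1.35 to 1.30 in mature cells. Differences of up to about that size lie within the error of this fit of 2 arrays against 2, which leaves the replicate numbers out. The intervals were narrower for the tightly measured chains: Itgb1 differed by 0.14 in mature (-0.35 to 0.63) and 0.27 in immature cells (-0.22 to 0.76), and Itgb5 by 0.20 (-0.35 to 0.74) and 0.13 (-0.42 to 0.67).

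Itga6 had the smallest p of the 10. Neither KO mature array detected it, and 1 of the 2 KO immature arrays did. The WT mature mean was 1.39-fold above the lowest normalized value among detected probes, which gives a bound for mature cells. That bound leaves out the spread between arrays, and limma did not call the mature difference (adjusted p = 0.80). The fitted differences, taken against these undetected levels, were -0.79 in mature cells (95% interval -1.34 to -0.24), -0.74 in immature cells (-1.29 to -0.19) and -0.77 on average (SE 0.17, unadjusted p = 0.0019, adjusted p = 0.29). On the 4 KO arrays of sets 1 and 2 it was at 4.76 to 5.27, against 5.62 to 6.03 on the 4 WT arrays. The probe was detected on 1 of the KO and 4 of the WT arrays. The share of all genes whose genotypes lay apart in this way is not given here. Its other detected probes gave average differences of -0.06 and -0.27, both not called, and the authors' deposited log2 values gave -0.28. The probe at -0.06 was almost as bright as the one used, with a mean of 5.39 against 5.40 over the 12 arrays. Itgav in mature cells was the other member with an unadjusted p under 0.05, at 9.67 and 9.54 in KO against 9.28 and 8.96 in WT cells (0.48, 95% interval 0.02 to 0.95, not called). In immature cells Itgav differed by 0.12 (-0.34 to 0.58). The chains of the E-cadherin receptor had the widest intervals, with Itgae at -0.39 (-1.35 to 0.56) and Itgb7 at -0.00 (-1.31 to 1.30) in mature cells, and at 0.39 (-0.56 to 1.34) and 0.43 (-0.88 to 1.74) in immature cells. Within sets 1 and 2, KO minus WT in mature cells was -0.03 and -0.76 for Itgae and 0.18 and -0.18 for Itgb7. In immature cells it was 0.53 and 0.24 for Itgae and 0.53 and 0.33 for Itgb7. Itga5 and Itgb8 differed by 0.02 (-0.80 to 0.84) and -0.39 (-1.12 to 0.35) in mature cells and by -0.53 (-1.35 to 0.29) and -0.30 (-1.04 to 0.43) in immature cells. Itga4 differed by 0.42 (-0.08 to 0.91) in mature and 0.26 (-0.23 to 0.76) in immature cells, and Itgb3, near background, by 0.31 and 0.21. Averaged over the stages, the members other than Itga6 lay between -0.35 for Itgb8 and 0.34 for Itga4.

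**Figure D4:**
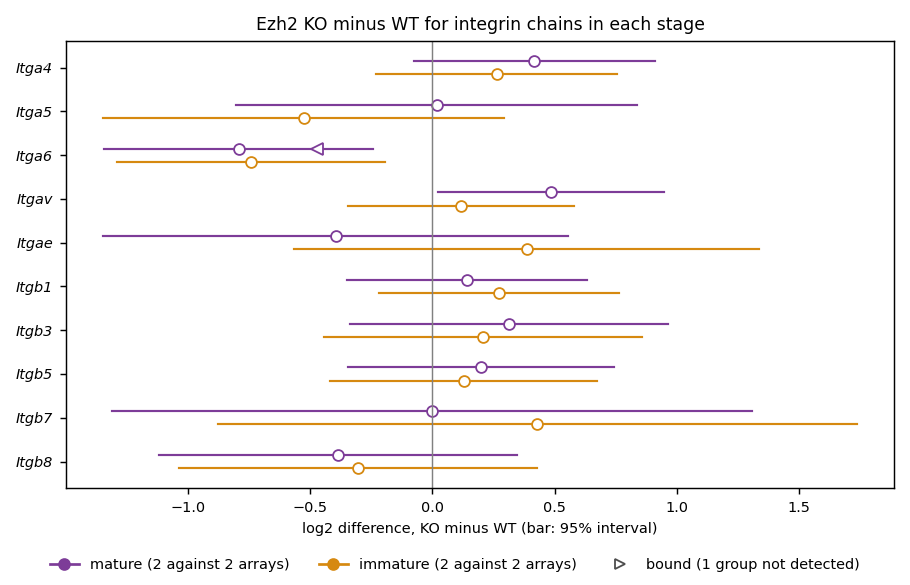
Difference between KO and WT cells for each integrin chain, as log2 KO minus WT with 95% intervals, in mature (purple) and immature (orange) cells of sets 1 and 2, with 2 arrays against 2. Open points were not called, which holds for all 20; the triangle is the bound of Itga6 in mature cells, and the fitted intervals of Itga6 lie below 0 in both stages, from -1.34 to -0.24 in mature and from -1.29 to -0.19 in immature cells.

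The response to LPS did not differ between the genotypes for any member at the threshold. The difference of the responses, KO minus WT, was called for 0 of the 10 members and for 0% of all genes by limma, with 0 members and 169 of all genes at an unadjusted p under 0.05. Itgae had the widest gap between its responses, -0.78 (95% interval -2.12 to 0.56), followed by Itga5 at 0.54 (-0.61 to 1.70), Itgb7 at -0.43 (-2.28 to 1.42) and Itgav at 0.37 (-0.29 to 1.02). The intervals hold differences of more than 1 log2 unit for these 4. Itga4 was at 0.15 (-0.54 to 0.85), Itgb1 at -0.13 (-0.82 to 0.56) and Itgb5 at 0.07 (-0.70 to 0.84). The members not detected on some arrays had fitted values of 0.11 for Itgb3 (-0.81 to 1.02), -0.05 for Itga6 (-0.83 to 0.73) and -0.08 for Itgb8 (-1.12 to 0.95). The intervals of Itgb3 and Itgb8 thus also hold differences of more than 1 log2 unit.

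The genes whose pattern over all 12 arrays was most like a member's were found by the root mean square (RMS) difference of log2 levels after centring each gene on its own mean, with the labels unused, for the 8 members whose range over the 8 arrays was above 1. Itgav was matched most closely by Zc3h12a (RMS 0.14), Pik3ap1 and Ifi27l2a, and Itga5 by Ddx58 (0.20), Oas1g and Rgcc. Itgb8 was nearest to Trim30a (0.28), Pml and Ddx58, and Itga4 to Bmp2k (0.15), Dusp1 and Skil. On the falling side, Itgae was nearest to Alox5 (0.30), Tmem238 and Lrmp, Itgb7 to F2rl2 (0.37), Ramp1 and Mgl2, and Itgb5 to Serinc3 (0.15), Stxbp4 and Rassf4. Itga6 was nearest to Mfsd13a (0.17), Tmem82 and Lzts2. A change with LPS enters every such RMS, since the arrays cover both stages.

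Integrin chains that are not among the 10 were called lower or not at all. Of the 5 tested of 11 other integrin chains, 0 rose and 1 fell with LPS on average, the collagen receptor chain Itga1, a partner of Itgb1 (-0.71, SE 0.18, adjusted p = 0.011), with a list median of 0.04 beside -0.03 over all genes. Itga1 was called in KO cells (-1.06, adjusted p = 0.013), and 0 of the 5 were called in WT cells. On WT arrays Itga1 was also lower, at 8.44 and 8.54 in mature against 9.03 and 8.67 in immature cells. Of the 5 tested of 6 leukocyte beta2 chains, 0 rose and 3 fell. Itgam, the alpha chain of complement receptor 3, fell by 1.55 on average (adjusted p = 0.0023) and Itgb2l fell by 1.51 on average (adjusted p = 0.020). Within one genotype, Itgam was called in KO cells only (-2.04, adjusted p = 0.0052) and Itgb2l in neither. On WT arrays Itgam was also lower, at 7.95 and 7.02 in mature against 8.70 and 8.37 in immature cells. The response to LPS was called different between the genotypes for 0 of the 10908 genes. Itgax, the CD11c chain used to identify dendritic cells, fell by 1.47 in KO cells (adjusted p = 0.0013) and fell by 1.10 in WT cells (adjusted p = 0.0057). The list median was -1.28.

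Among 28 matrix and cell surface ligands, 17 were tested, of which 6 rose and 4 fell on average, with a median of 0.33. Vcam1, the ligand of the Itga4 receptors, rose by 1.52 in KO cells (SE 0.36, adjusted p = 0.013), against 0.91 in WT cells, not called (the difference of 0.61 had a 95% interval of -0.55 to 1.78). Col4a1, a basement membrane collagen chain, rose by 2.27 (adjusted p = 0.00027) and Lamc1, a laminin chain, by 1.33 (adjusted p = 0.00012). Beside Cdh1, Vwf, the von Willebrand factor of platelets and endothelium, fell by 2.50 (adjusted p = 0.00012). Of the megakaryocyte and platelet list, 1 of 5 tested members was lower after LPS, Treml1. Itga2b, Pf4, Gp9 and Ppbp were not called (0.09, 0.54, 0.02 and -0.79). The sum of this list overlapped between stages in both genotypes. It was 915 to 2759 on KO mature and 988 to 2481 on KO immature arrays. On WT arrays it was 1661 to 3573 in mature and 1299 to 3170 in immature cells.

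Inside the cell, 27 of 33 activators and adaptors were tested, of which 8 rose and 6 fell, with a median of -0.01. Fyb, the adaptor that links receptor signals to integrin activation, rose by 1.78 (adjusted p = 0.00035), and the kinase Src by 1.58 (adjusted p = 0.0060). Parvg, a parvin of blood cells, fell by 2.41 (adjusted p = 0.00011) and Zyx, a focal adhesion protein, fell by 1.59 (adjusted p = 6.9e-05). Rasa3, which keeps Rap1 and with it integrins inactive, fell by 1.63 in KO cells (adjusted p = 0.00062) and fell by 0.76 in WT cells (adjusted p = 0.019). The talins are given because the series title names talin: Tln1 changed by -0.37 with LPS (95% interval -0.72 to -0.03) and Tln2 by 0.30 (-0.39 to 0.99), neither called, and KO minus WT was 0.05 for Tln1 (-0.29 to 0.39) and 0.69 for Tln2 (0.00 to 1.38), neither called.

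Of 13 membrane proteins that associate with integrins, 12 were tested, with 5 higher and 3 lower after LPS and a median of 0.25. Sdc4, the syndecan that acts with Itga5 and Itgb1 on fibronectin, rose by 1.59 (adjusted p = 0.00011) and Cav1 by 1.39 (adjusted p = 0.027). The tetraspanins went both ways, Cd81 higher by 1.29 in KO cells (adjusted p = 0.0037) and by 1.11 in WT cells (adjusted p = 0.0083), while Cd37 fell by 1.08 on average (adjusted p = 0.0028) and Cd9 fell by 0.86 on average (adjusted p = 0.00099). Cd37 was called in KO cells (-1.41, adjusted p = 0.00645) and not in WT cells. There it was also lower, at 8.30 and 7.99 on mature against 8.68 and 9.09 on immature arrays.

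For the pathway that Itgav with Itgb8 feeds, 14 of 18 genes of TGF-beta activation and signalling were tested, of which 3 rose and 4 fell, with a median of -0.29. Ltbp1, which holds latent TGF-beta in the matrix, rose by 1.67 (adjusted p = 0.0026), and Skil, an inhibitor of Smad signalling, by 1.16 (adjusted p = 0.00036). Both signalling receptors fell, Tgfbr2 (-2.29, adjusted p = 4.3e-05) and Tgfbr1 (-1.70, adjusted p = 0.00013), while the chains of the activating integrin rose. Over the 80 tested genes of the 6 lists, 22 rose and 21 fell with LPS on average, beside the 21.4% and 27.7% of all genes. For KO minus WT, averaged over the stages, limma called 0 of the 80, with 6 at an unadjusted p under 0.05 beside 665 of the 10908 genes, and for the difference of the LPS responses 0, with 2 at an unadjusted p under 0.05 beside 169.

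**Figure D5:**
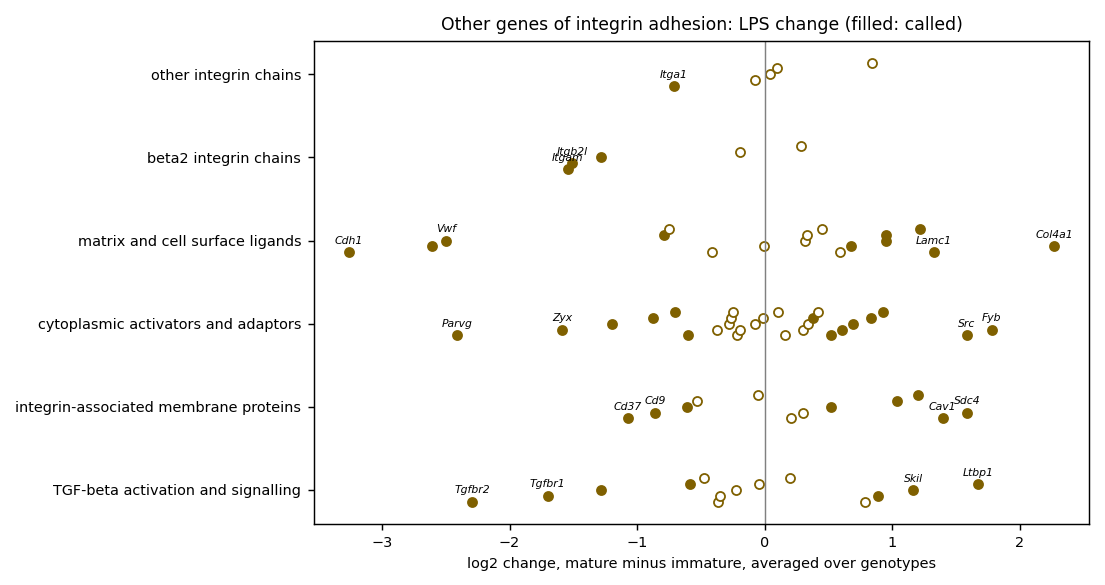
LPS change of the 80 tested genes of 6 lists of integrin biology, as the log2 difference of mature minus immature arrays averaged over KO and WT cells of sets 1 and 2, one row per list and one point per gene. Filled points were called, 22 higher and 21 lower, and the named genes are up to 2 of each direction per list, from Cdh1 at -3.26 to Col4a1 at 2.27.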

How the data were processed

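RNA of 12 samples was hybridised to Illumina bead arrays. Each deposited intensity is a mean over a probe's beads on a linear scale, not normalized, and comes with the detection p-value of that probe, per the file headers. A second deposited table holds log2 values. Its arrays have the same median, so they were normalized between arrays, and they rank the probes as the intensities do. Ranks alone cannot show whether background was corrected. The LPS calls from these values numbered 3907 genes in KO cells, 3273 in WT cells and 5343 on average. Quantile normalization of the intensities without background correction gave the same numbers, so the authors' values appear to have no background correction. The submitters' processing notes name BeadStudio, limma and R 2.15.2 but not their roles.

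Here the intensities were normalized over the 12 arrays with neqc in limma 3.58.1 (R 4.3.3, offset 16), and the 21049 probes detected (p under 0.05) on 3 or more arrays were kept. Symbols came from the platform annotation and were updated through gene identifiers (34807 of 34885 probes with 1 symbol). The brightest kept probe stood for its gene. Means of the 4 groups were fitted on the 8 arrays of sets 1 and 2 in limma, with eBayes allowing an intensity trend, and p-values are two-sided. Where no array of a group detected a probe, the fold is a bound, and fitted values of such probes are given as fitted. A bound is taken from the group means and leaves out the spread between arrays. The number of arrays limits the precision. The fit was tested on simulated data.

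All 10 members were named in every comparison, with, per list and comparison, up to 2 risen and 2 fallen genes of largest change among those called whose groups did not overlap. Members and lists were chosen with earlier results of these data known.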

Additional observations from a re-analysis of the deposited data

How the results depend on the processing

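The number of members called was recomputed with the replicate block, with 10 arrays (without the pair labelled WT in set 3), with quantile normalization alone, with the deposited log2 values, with no detection filter, with detection on all 8 arrays, with the mean of a gene's probes, without the intensity trend, with neqc over 8 arrays and without each array. With all 12 arrays as labelled the LPS comparisons called 0 members in KO cells, 0 in WT cells and 0 on average, against 7 in each, and 0 genes in all. The KO changes were then close to those of 8 arrays (Itgae -4.61, adjusted p = 0.067) and the WT changes smaller (Itgae -1.11). Without any 1 array the LPS counts were 6 to 7 in KO cells, 5 to 7 in WT cells and 7 on average. Detection on all 8 arrays left 7 members tested, of which 6 were called in each LPS comparison. Of the 8294 genes then tested, 3317 were called in KO cells, 2774 in WT cells and 4487 on average. The mean of a gene's probes gave 8 members on average, with Itgb1 added, beside 5291 of 10908 genes. In WT cells it exchanged Itga4 (0.68, adjusted p = 0.053) for Itgb1 (0.66, adjusted p = 0.044), beside 3200 genes called. Of all genes, LPS called 2374 and 2411 in KO cells without KO immature array 1 or 2, against 3926, and 2018 and 1784 in WT cells without WT immature array 1 or 2, against 3307. Genotype and response differences called 0 members under every one of these settings. Replicate numbers are shared between groups without a stated meaning. The deviations of same-numbered arrays correlated at 0.22 to 0.72 between groups, a hint from 2 numbers only. With the replicate block the members called stayed at 7 of 10 in each LPS comparison and 0 for genotype. The genes called for LPS were then 4988 in KO cells, 4489 in WT cells and 6277 on average, of 10908. The genes called for KO minus WT were 16 in immature, 13 in mature and 59 on average, against 3, 2 and 6, and Itga6 had an adjusted p of 0.12. The slide as a block was not run, since the files name no slide. Probes near background (Itga6, Itgb3 and Itgb8 in immature cells) limit what their folds can show.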

Other observations

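Array by array, Itga6 ran opposite to Cdkn2a also in set 3. In sets 1 and 2 the brightest Itga6 probe was at 4.76 to 5.27 on the 4 KO arrays, against 5.62 to 6.03 on the 4 WT arrays. In set 3 it was at 5.60 and 5.69 on the arrays labelled KO mature and KO immature, both detected, against 5.15 and 5.09 on those labelled WT mature and WT immature, both not detected. Cdkn2a was at 4.57 and 4.70 on the set 3 arrays labelled KO, against 7.63 and 8.08 on those labelled WT. Over the 12 arrays, each array that detected Itga6 lacked a detected Cdkn2a except KO immature array 1, and each array without a detected Itga6 had a detected Cdkn2a. The comparison was made after these values were seen, Itga6 lies near background, and its other probes did not show it. The share of all genes that ran opposite to Cdkn2a in this way is not given here.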
